A study of Homo sapiens with 3 samples.

Results

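ZNF symbols name a large set of human genes whose proteins carry zinc fingers. Members here were the genes whose symbol is ZNF followed by digits and at most 1 letter and whose level, averaged over 3 libraries, was at least 2 FPKM (fragments scaled to transcript length and to library total). Of 528 such symbols among the 21572 genes listed, 206 met that minimum. The other 322 lay under it, and 41 of these were at 0 in every library. Expression level alone chose the members, so their levels are a description. The average is over the same libraries that are compared, so a gene near the minimum can enter through the library where it is high. This touches 25 members with at least 1 library under 2 FPKM, and 9 of the 27 members past 1.5-fold in any comparison below.

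The classical zinc finger of these proteins, the C2H2 finger, is a short loop held by a zinc ion through a pair of cysteines and a pair of histidines. Arrays of such fingers read DNA sequence. Many of the proteins also carry a KRAB box, a short domain that recruits the corepressor TRIM28 (KAP1), which in turn brings the histone methyltransferase SETDB1, HP1 proteins and deacetylases to build silent chromatin, often over transposable elements. Genes for KRAB zinc finger proteins lie largely in tandem clusters on chromosome 19. Other ZNF proteins work in mitosis, ribosome maturation, ribosome quality control or gene activation, and some have no C2H2 finger.

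The libraries came from Hep-G2, an established human hepatoma line, at passage 21. One line carried the scrambled control hairpin SHC002, and the other 2 carried hairpins against FTO, an RNA demethylase of N6-methyladenosine, named sh#2 (TRCN0000255402) and sh#7 (TRCN0000246247). The series design calls the knockdown stronger in sh#7, and the labels do not say whether a line is a clone or a pool. Each group held 1 library, so the differences below are without any replicate check, no test was made, and an effect of FTO cannot be told apart from a difference between lines or from hairpin effects. The control library serves both comparisons, so the differences of both lines from control share its error.

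FTO stood at 9.02 FPKM (control), 5.29 (sh#2) and 2.55 (sh#7), and values of 3 libraries below keep this order. Depth was estimated at 41.3, 40.8 and 41.5 M (mega) fragments, with a median of 544 estimated fragments per member and library (range 52 to 12389). All 7 hepatocyte markers were present, and their levels summed to 10973 FPKM (control), 10180 (sh#2) and 4296 (sh#7). AFP, a fetal liver protein, was at 961, 294 and 15.7 FPKM. The 5 blood, 4 fibroblast and 3 endothelial markers summed to at most 2.36, 0.585 and 0.196 FPKM in any library. What the lower hepatocyte markers in sh#7 have to do with the ZNF values was not tested.

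Most members were a little higher in both knockdown lines than in the control, and few differed much. In sh#7, 165 of 206 members lay above the control, beside 67% of all 10067 genes with the same minimum level, and 41 lay below it, beside 33%. In sh#2, 174 lay above it, beside 67.4%, and 32 below it, beside 32.6%. Between the knockdown lines, 122 were higher in sh#7, beside 56.9%, and 84 lower, beside 43%. The control held the highest of the 3 values for 14 members (6.80%), whereas it did so for 19.9% of all compared genes. sh#7 held the highest value for 117 members (56.8%, beside 50.6% of all compared genes) and sh#2 for 75 (36.4%, beside 29.5%).

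Differences are given on the log2(FPKM + 1) scale, which understates the change of low genes. The members' median difference was 0.24 in sh#7 against control, beside 0.16 for the 9861 other genes, and 0.19 in sh#2 against control, beside 0.10. Each median kept its sign under 2 other scalings, at 0.10 and 0.14 in sh#7 and 0.09 and 0.11 in sh#2. Set against other genes in the same band of mean FPKM, the median member was 0.04 higher in sh#7 and 0.08 higher in sh#2. The sh#7 value depends on the members taken: it was 0.018 with a minimum of 1 FPKM, 0.11 with a minimum of 5 FPKM and 0.077 without chromosome 19. The members also lay closer together than other genes. Their interquartile range was 0.33 in sh#7 against control, where that of other genes was 0.47, and 0.22 in sh#2 against control, where that of other genes was 0.31. In both comparisons with the control the members' range was also the smaller in each band of level, but by unlike amounts. It was 0.303 beside 0.305 at 8 to 16 FPKM in sh#2, and 0.404 beside 0.461 at 16 FPKM or more in sh#7. Between the knockdown lines the members' range was the larger at 16 FPKM or more, at 0.42 beside 0.36.

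On the log2(FPKM + 1) scale, to which fold counts refer unless another setting is named, large differences were few. A single member was at least 2-fold higher in sh#7 than in the control, beside 2.07% of compared genes, and 0 were 2-fold lower, beside 2.48%. ZNF786, at 1.44 FPKM in the control and 2.98 in sh#7, was past 2-fold in FPKM but not on this scale. At 1.5-fold, 16 members were higher (9.46% of compared genes) and 3 were lower (6.19%). In sh#2, 1 member was 2-fold higher (0.427%) and 0 were 2-fold lower (0.685%), and at 1.5-fold 4 were higher (2.6%) and 1 was lower (2.61%). Between the knockdown lines, 0 members passed 2-fold in either direction (1.26% of compared genes higher in sh#7 and 1.53% lower), and at 1.5-fold 3 were higher in sh#7 (4.73%) and 5 were lower (4.6%). These counts depend on the scale: in sh#7 against control, members past 1.5-fold were 6 higher and 7 lower under median-of-ratios scaling, and 28 higher and 7 lower with a pseudocount of 0.1. Shares of all compared genes under these settings were not computed, so these alternative counts cannot be read as few or many.

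**Figure D1:**
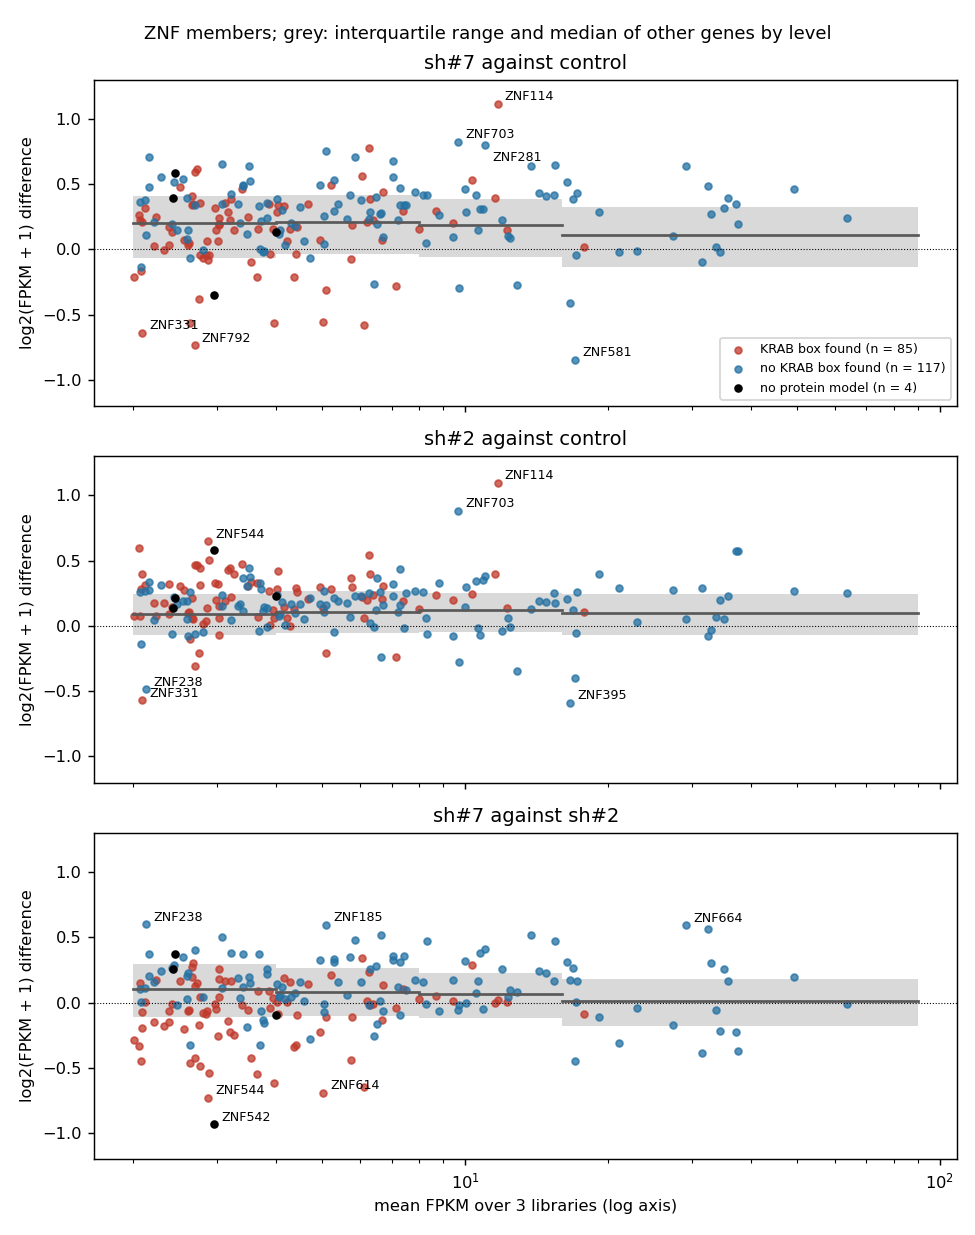
Difference of each ZNF member on the log2(FPKM + 1) scale (vertical axis) against its mean FPKM (horizontal, log axis), in 3 panels for the 3 comparisons. Red points mark members with a KRAB box found, blue points those without and black points those with no protein model; grey bands give the interquartile range of other genes in the same band of level and the grey line their median. Most points lie above 0 in both comparisons with the control.

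The members with the highest mean level were genes in which no KRAB box was found. ZNF207, which binds the spindle checkpoint protein BUB3 in mitosis, was the highest at 56.4, 67.4 and 66.9 FPKM. ZNF259, known today as ZPR1 and a partner of the SMN protein, was at 30.8, 46.2 and 35.5 FPKM. ZNF593, a factor of ribosome biogenesis, was at 29.5, 44.3 and 37.8 FPKM. These last 2 were highest in sh#2, at 150% of the control in each. ZNF622, a maturation factor of the large ribosomal subunit, was nearly level at 33.1, 34.8 and 33.4 FPKM. ZNF787, ZNF768 and ZNF444 were lowest in the control and highest in sh#7, from 41.2 to 57.1, 30.7 to 40.6 and 31.9 to 39.9 FPKM. ZNF511 was at 32.9, 37.9 and 32.4 FPKM.

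ZNF114, a KRAB gene on chromosome 19, was the member 2-fold higher in both lines. It stood at 6.19, 14.4 and 14.6 FPKM. As a share of the control, sh#2 had 232% (95% interval 210 to 257%) and sh#7 had 235% (213 to 260%). These intervals, here and below, are Clopper-Pearson intervals from the estimated fragment numbers, and they leave out everything except counting error. Under median-of-ratios scaling its log2(FPKM + 1) difference was 0.99 for sh#2 and 0.96 for sh#7, just short of 2-fold. Both knockdown lines lay far above the control and next to each other. ZNF703, a corepressor of the NET family that is amplified in luminal breast cancer, had the same shape at 5.95, 11.8 and 11.3 FPKM. Its relative ZNF503 was at 28.9, 27.4 and 40.997 FPKM, high in sh#7 alone.

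Other members were graded from control through sh#2 to sh#7. ZNF281, a C2H2 factor studied in pluripotency and in epithelial to mesenchymal transition, was at 7.93, 10.7 and 14.5 FPKM, and ZNF689 was at 4.23, 6.61 and 7.95. For ZNF281, sh#7 stood at 183% of the control (170 to 198%) and at 136% of sh#2 (127 to 146%). Neither interval reaches 100%. ZNF710 went through 5.26, 6.83 and 9.03 FPKM, and ZNF786 through 1.44, 2.07 and 2.98, where it reached the minimum through its sh#7 value.

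A further set was high in sh#7, with sh#2 clearly closer to the control than to sh#7. ZNF598, the ubiquitin ligase that marks collided ribosomes, was at 12.4, 14.1 and 19.96 FPKM, with sh#7 at 161% of the control (151 to 172%). ZNF664 was at 24.2, 25.1 and 38.2 FPKM. ZNF629 was at 11.1, 12.3 and 18.0 FPKM. In each of these the sh#7 value was the one that stood away from the others. ZNF185, an actin-associated LIM domain protein in which no C2H2 finger was found, was at 3.80, 4.37 and 7.09 FPKM. ZNF574 was at 4.40, 5.33 and 7.84 FPKM, and ZNF319 at 2.32, 2.68 and 4.21. In sh#2, ZNF185 was also above the control, at 115% (103 to 128%), and ZNF574 by 0.23 on the log2(FPKM + 1) scale. ZNF76, a paralogue of the transcription activator ZNF143, was lowest in sh#2, at 6.50, 5.35 and 8.09 FPKM, while ZNF143 was at 5.71, 7.06 and 7.11.

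On the log2(FPKM + 1) scale, the 3 members at least 1.5-fold lower in sh#7 than in the control were all on chromosome 19. By the ratio of FPKM itself other members also pass 1.5-fold, among them ZNF684 on chromosome 1, at 4.48 (control) and 2.71 FPKM (sh#7). ZNF581 was at 22.4, 16.8 and 12.01 FPKM, so that sh#7 had 53.6% of the control (48.7 to 59.1%). ZNF792, a KRAB gene, was at 3.60, 2.72 and 1.76 FPKM. ZNF331, an imprinted KRAB gene, was at 3.005, 1.70 and 1.57 FPKM and reached the minimum through its control value, with both knockdown lines under 2. All 3 were highest in the control, and ZNF331 was about as low in sh#2 as in sh#7 (sh#7 at 92.6% of sh#2, 74.2 to 115%). ZNF580, the neighbour of ZNF581, was at 14.9, 11.5 and 12.2 FPKM.

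ZNF395, a transcription factor gene induced by hypoxia, was at 20.9, 13.6 and 15.5 FPKM. On the log2(FPKM + 1) scale it was the only member at least 1.5-fold lower in sh#2. ZNF238, known today as ZBTB18 and a repressor with a BTB domain, was low in sh#2 alone, at 2.35, 1.40 and 2.63 FPKM. By FPKM itself, sh#2 had a smaller share of the control for ZNF331 (56.5%) and ZNF238 (59.3%) than for ZNF395 (64.9%). ZNF670 was at 3.28, 2.70 and 2.28 FPKM.

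**Figure D2:**
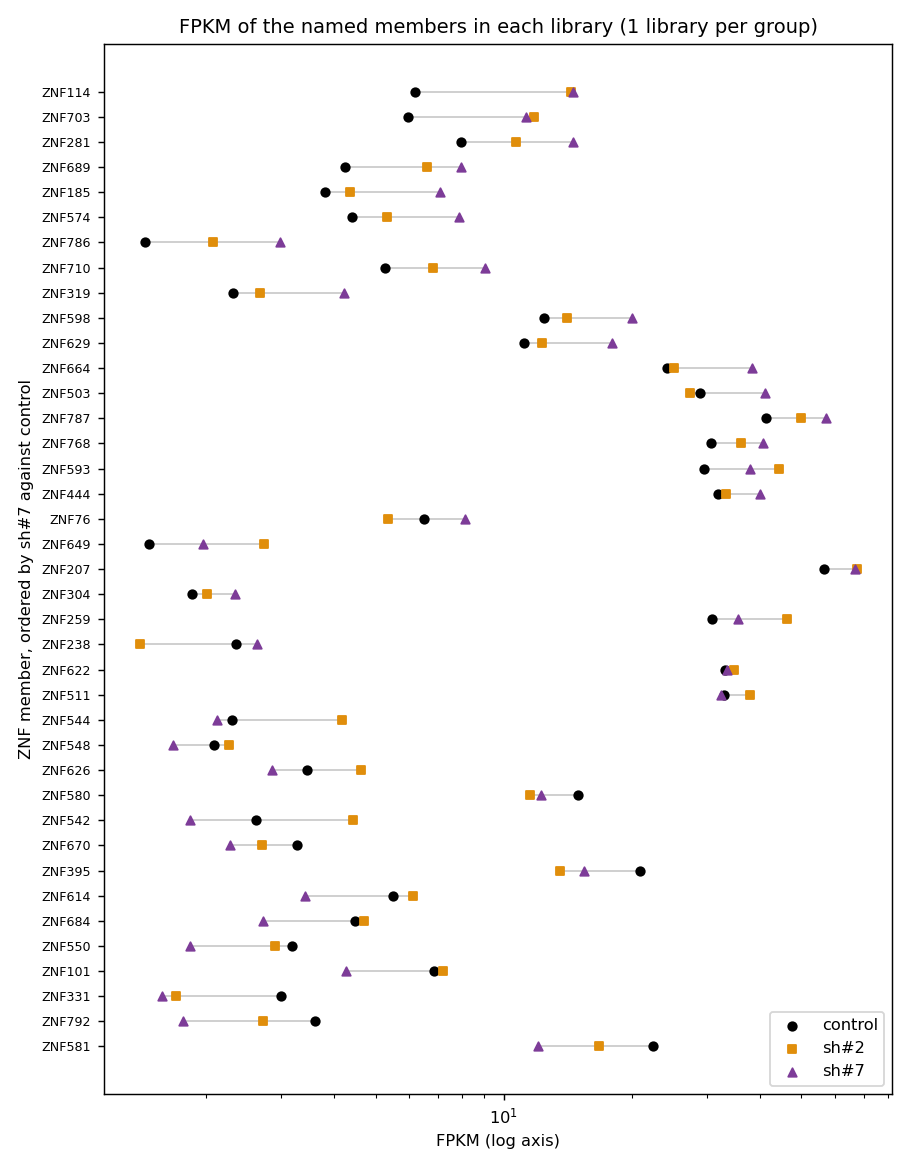
FPKM (horizontal, log axis) of the ZNF members chosen by size of difference, by level or by closeness to the minimum, ordered by sh#7 against control. Circles are the control, squares sh#2 and triangles sh#7, with 1 library each; the grey line spans the 3 values. ZNF114 and ZNF703 have both knockdown lines together on the right of the control, while for ZNF544 and ZNF542 sh#2 alone lies to the right.

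Between the knockdown lines, the members lowest in sh#7 were nearly all KRAB genes. ZNF542, listed as a pseudogene in RefSeq, was at 2.62, 4.42 and 1.84 FPKM, with sh#7 at 41.6% of sh#2 (35.7 to 48.5%). ZNF544 was at 2.30, 4.18 and 2.13 FPKM. ZNF614 was at 5.51, 6.14 and 3.42 FPKM. The first 2 were high in sh#2 and near or under the control in sh#7, whereas ZNF614 was near the control in sh#2 and low in sh#7. ZNF101 was at 6.87, 7.22 and 4.25 FPKM, and ZNF684, the only one of these 5 outside chromosome 19, at 4.48, 4.71 and 2.71. ZNF626, the next lowest, was at 3.46, 4.61 and 2.85 FPKM. ZNF550, named for its low value in sh#7 against control, was at 3.18, 2.91 and 1.83. It was not among the 6 lowest between the lines, and members not listed here lay below it.

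A KRAB box was found by a sequence pattern in the proteins of 85 members and not found in 117, and 4 had no protein model. The pattern can miss divergent boxes, so the 117 may include KRAB genes. Reads of close relatives in these clusters may have been shared between genes, since how the authors treated them is not stated. Members with under 5, 5 to 9 and at least 10 C2H2 fingers had medians relative to genes of like level of 0.13, 0.04 and 0.02 in sh#7 against control and 0.05, 0.06 and 0.11 in sh#2 against control. Finger number and KRAB box go together, with a median of 11 fingers in KRAB members and 6 where no box was found. Where no box was found, the relative medians in sh#7 against control were 0.12, 0.09 and 0.22 in the same order of fingers. In KRAB members they were 0.22, -0.05 and -0.04, the first from 6 members. Of the members, 62 lie on chromosome 19. Crossing the KRAB box with chromosome 19 was done after the values had been seen, as 1 of many divisions by fingers, level, GC content and position, and it carries no test.

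KRAB members on chromosome 19 stood above genes of like level in sh#2 but not in sh#7. Relative to those genes, the median of these 41 members was 0.18 in sh#2 against control, -0.07 in sh#7 against control and -0.24 in sh#7 against sh#2. In the last comparison 34 of the 41 lay below genes of like level, as did 30 of the 44 KRAB members on other chromosomes and 112 of all 206 members. KRAB members on other chromosomes had medians of 0.10, 0.01 and -0.07 in the same order. The 20 members on chromosome 19 in which no KRAB box was found had 0.06, 0.15 and 0.17, and the 97 on other chromosomes 0.06, 0.12 and 0.03. Over all members the median of sh#7 against sh#2 was 0.04, with its sign turned to -0.0030 under median-of-ratios scaling, and -0.03 relative to genes of like level. The latter was -0.061 with a minimum of 1 FPKM and turned to 0.015 with a minimum of 5 FPKM. Sets of opposite sign lie within that median.

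The -0.07 in sh#7 against control is not stable. It was -0.13 with a stricter KRAB pattern, -0.12 beside genes of like level and GC content, and 0.08 among the 6 members of that set that reach 5 FPKM on average. The difference between the knockdown lines kept its sign in the same alternatives, at -0.14 among those 6. GC content differs between the sets, with a median of 44.7% in the transcripts of KRAB members on chromosome 19 and 65.1% in members there in which no box was found. Beside genes of like level and GC content, the former stood at -0.21 in sh#7 against sh#2. Among ZNF genes with a mean of 1 to 2 FPKM, which are not members, the 49 KRAB genes on chromosome 19 had a median of -0.20 in sh#7 against sh#2, with 43 below genes of like level. The 20 KRAB genes elsewhere at that level had -0.01. In sh#2 against control the 49 stood at 0.12, the 20 at 0.14, and 31 genes with no KRAB box found at 0.10. At that level the higher value in sh#2 was thus not particular to KRAB genes on chromosome 19. These genes come from the same libraries, so they are no replicate.

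**Figure D3:**
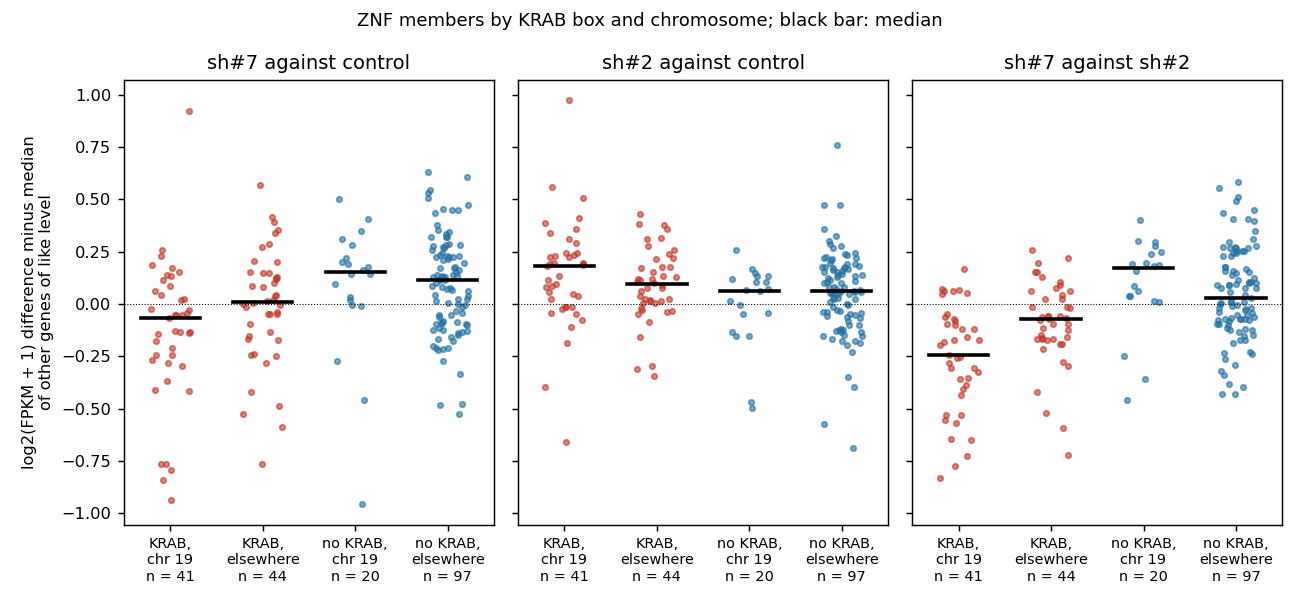
Difference of each ZNF member minus the median of other genes of like level, on the log2(FPKM + 1) scale, in 4 sets by KRAB box and chromosome 19, for the 3 comparisons. Points are members and black bars medians; the 4 members with no protein model are left out. The first set is at 0.18 in sh#2 against control and at -0.24 in sh#7 against sh#2.

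Promoter sequences are shown for the 3 KRAB members on chromosome 19 that were lowest in sh#7 against sh#2, ZNF544, ZNF614 and ZNF101, and for ZNF281, which was graded upward. Each is the 250 bases before the RefSeq start on GRCh38.p14, given 5′ to 3′ on the gene's strand. Capitals mark matches, on either strand, to the GC box GGGCGG, the ETS core CCGGAAG or the CCAAT box CCAAT, of which none contains another.
ZNF544, chr19:58228664-58228913, plus strand: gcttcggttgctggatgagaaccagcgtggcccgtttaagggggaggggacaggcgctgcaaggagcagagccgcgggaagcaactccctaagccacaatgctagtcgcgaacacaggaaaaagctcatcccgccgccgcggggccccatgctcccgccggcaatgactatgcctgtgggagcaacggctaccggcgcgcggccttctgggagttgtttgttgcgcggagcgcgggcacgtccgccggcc
ZNF614, chr19:52028380-52028629, minus strand: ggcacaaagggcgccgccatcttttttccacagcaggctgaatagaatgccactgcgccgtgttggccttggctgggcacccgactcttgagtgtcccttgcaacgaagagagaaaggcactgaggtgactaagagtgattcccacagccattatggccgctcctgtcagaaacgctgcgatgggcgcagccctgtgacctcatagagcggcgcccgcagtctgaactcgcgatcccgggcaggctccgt
ZNF101, chr19:19668589-19668838, plus strand: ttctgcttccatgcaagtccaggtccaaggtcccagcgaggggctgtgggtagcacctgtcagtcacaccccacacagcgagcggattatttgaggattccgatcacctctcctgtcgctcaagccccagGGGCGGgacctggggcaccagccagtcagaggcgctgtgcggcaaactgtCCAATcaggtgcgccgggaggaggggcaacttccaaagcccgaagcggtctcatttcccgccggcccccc
ZNF281, chr1:200410037-200410286, minus strand: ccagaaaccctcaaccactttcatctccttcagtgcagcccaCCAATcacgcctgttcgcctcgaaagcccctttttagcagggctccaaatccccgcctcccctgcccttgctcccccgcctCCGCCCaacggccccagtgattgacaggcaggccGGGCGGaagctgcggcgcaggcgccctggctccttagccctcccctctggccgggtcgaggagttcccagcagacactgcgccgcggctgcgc
ZNF544 and ZNF614 hold none of these motifs in this window, while ZNF101 and ZNF281 hold a GC box and a CCAAT box. The motifs were chosen after the values were seen.

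Over the 177 members with an entry, 66.1% held a GC box, beside 42.3% of all 27305 RefSeq promoters whatever their expression, 28.2% an ETS core (8.82%) and 42.4% a CCAAT box (33.0%). The members' windows were also richer in G and C, with a median GC content of 63.6% beside 58% and a median of 19 CpG beside 11, and the part of this in the motif shares was not tested. An ETS core was in 13.9% of the 36 KRAB members on chromosome 19 with an entry and in 42.1% of the 38 KRAB members elsewhere. A CCAAT box was in 58.3% and 52.6% of them, and in 33.0% of the 103 members in which no KRAB box was found. A match describes letters in the window and says nothing of binding.

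Medians of neighbouring members differed between clusters. Members with no other compared gene between them formed 13 runs of at least 3. The longest, from ZNF304 to ZNF544 near the end of chromosome 19, held 9 members of which 8 had a KRAB box, and its median relative to genes of like level was 0.11 in sh#2 against control, -0.27 in sh#7 against control and -0.36 in sh#7 against sh#2. It includes ZNF274, which brings SETDB1 to zinc finger genes and was at 5.03, 6.42 and 5.86 FPKM. The run of ZNF649, ZNF614 and ZNF616 stood at 0.09, -0.18 and -0.44. A run of 3 on the same chromosome, ZNF224, ZNF226 and ZNF227, stood at 0.22, 0.12 and -0.10, so the clusters of chromosome 19 were not all alike.

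Among the runs on other chromosomes, those on chromosomes 7 and 18 and 1 on chromosome 16 stood above genes of like level in all 3 comparisons, while those on chromosomes 1 and 10 and the other on chromosome 16 stood below them in sh#7. The 7 members from ZNF786 to ZNF767 on chromosome 7 were at 0.12 in sh#2 against control, 0.28 in sh#7 against control and 0.10 in sh#7 against sh#2, with 7 of 7 above genes of like level in each comparison with the control. The 5 members from ZNF768 to ZNF689 on chromosome 16, of which 4 had a KRAB box, were at 0.13, 0.28 and 0.13.

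**Figure D4:**
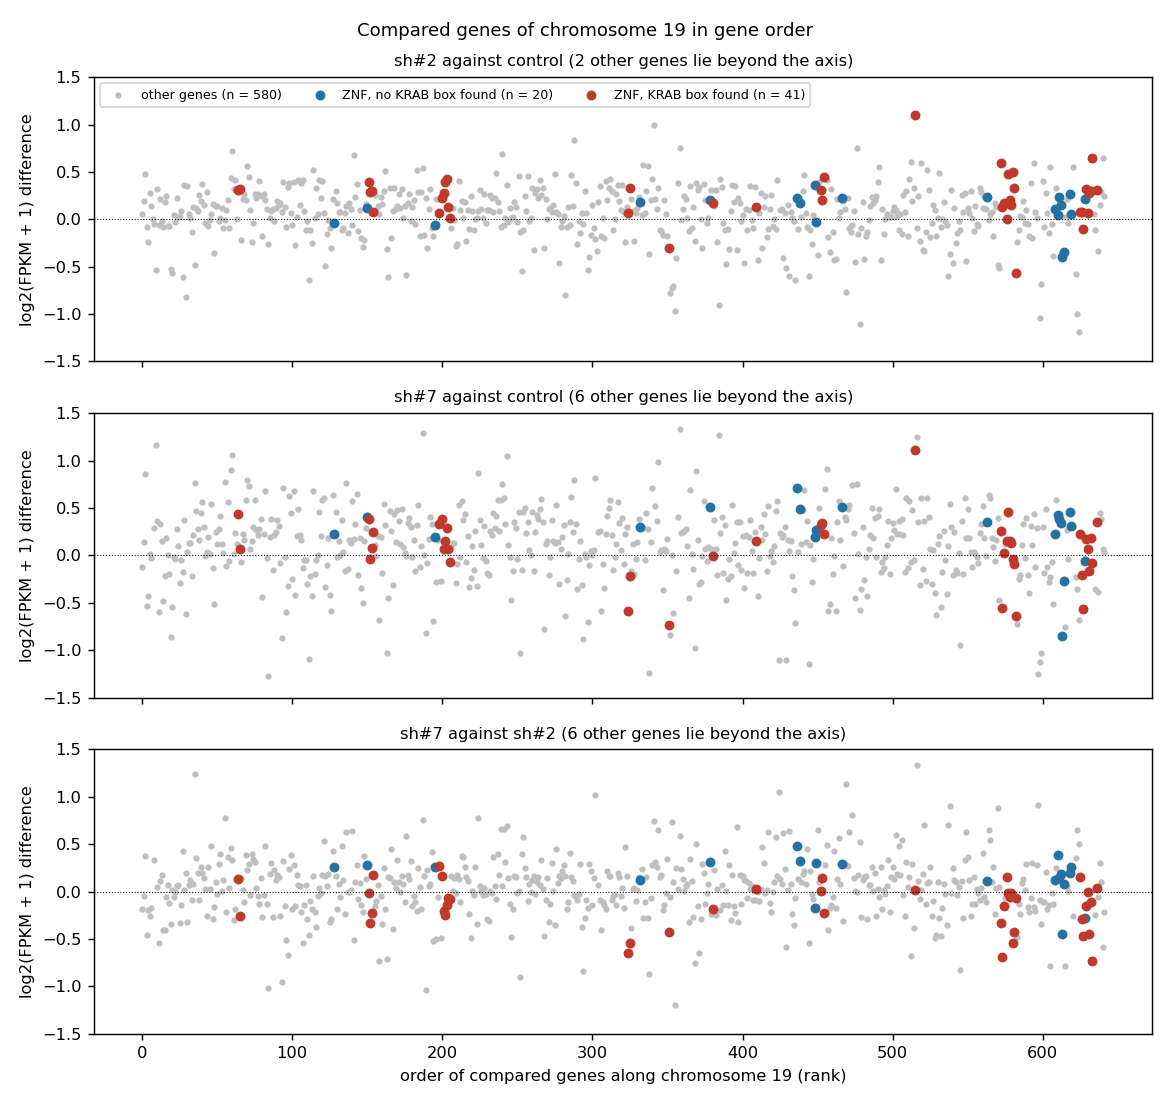
Difference on the log2(FPKM + 1) scale of compared genes of chromosome 19, by their order along the chromosome (rank), in 3 panels. Grey points are other genes, red points ZNF members with a KRAB box found (n = 41) and blue points those without (n = 20); genes beyond the axis are counted in each panel title. Red points lie mostly above 0 in sh#2 against control and mostly below 0 in sh#7 against sh#2. ZNF542, which had no protein model, is left out.

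Members with a described role were set apart by lists. Of 45 genes with a role outside KRAB repression, 35 were members, of which 4 were at least 1.5-fold higher in sh#7 (ZNF281, ZNF598, ZNF703 and ZNF689; 9.46% of compared genes) and 0 lower (6.19%). In sh#2, 1 was higher (ZNF703; 2.6%) and 1 lower (ZNF395; 2.61%). The counts of higher members are near those shares. Their median was 0.31 in sh#7 and 0.19 in sh#2. ZNF689 was on this list although a KRAB box was found in it. ZNF410, which activates the gene for the chromatin remodeller CHD4, was at 8.47, 9.44 and 12.02 FPKM. Of 26 genes with a role in repression, 11 were members, with medians of 0.32 and 0.30, and 11 of 11 lay above genes of like level in sh#2 (143 of all 206 members), 9 in sh#7 (116 of 206) and 4 in sh#7 against sh#2 (94 of 206). ZNF445, a guardian of genomic imprints, was at 1.90, 2.59 and 3.03 FPKM, and ZNF746 (PARIS), a repressor of PGC-1α, at 4.81, 5.78 and 7.59. ZNF268 was at 1.86, 2.95 and 3.31 FPKM and ZNF649 at 1.47, 2.73 and 1.96.

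Partners of KRAB proteins were described in the same way. Of 36 cofactor and heterochromatin genes, 32 were compared, with a median of 0.33 in sh#7 and 0.19 in sh#2, and 24 and 21 of them lay above genes of like level. At least 1.5-fold higher were 5 in sh#7 (9.46% of compared genes) and 1 in sh#2 (2.6%), and 0 were lower in either (6.19% and 2.61%). TRIM28, the KRAB corepressor, was at 105, 128 and 138 FPKM. CBX5, which encodes HP1α, was at 3.19, 3.19 and 10.4 FPKM, with sh#7 at 325% of the control (280 to 376%). UHRF1, a reader of hemimethylated DNA, was at 15.7, 20.9 and 25.7 FPKM, MTA2, of the NuRD complex, at 28.3, 35.3 and 47.5, and the DNA methyltransferase gene DNMT3B at 8.90, 14.7 and 11.1.

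Other C2H2 families stood beside the members as follows, in sh#7 and in sh#2 against control. The median was 0.31 and 0.12 for 24 ZBTB genes, 0.30 and 0.21 for 6 ZSCAN genes, 0.28 and 0.24 for 4 ZKSCAN genes, 0.25 and 0.05 for 8 ZFP genes and 0.28 and 0.12 for 13 KLF and SP genes. KLF7 was at 1.43, 3.88 and 4.12 FPKM, with both knockdown lines together as for ZNF114. ZIC2, the 1 compared gene of the ZIC, GLI and GLIS families, was at 1.56, 2.13 and 5.26 FPKM.

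At the minimum level, ZNF548 (mean 2.01 FPKM), ZNF649 (2.06) and ZNF304 (2.07) were the members just inside, and ZNF71 (1.99), ZNF841 (1.98) and ZNF700 (1.97) lay just outside. ZNF548 was at 2.09, 2.26 and 1.67 FPKM and ZNF304 at 1.86, 2.01 and 2.34, while ZNF71 was at 1.82, 2.35 and 1.81. ZNF649 reached the minimum through its value in sh#2.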

How the data were processed

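The authors deposited 1 table with a value per gene and library. Its labels do not state a unit; FPKM was inferred from the Cufflinks-style header, the tools and the values of the table that the authors deposited. STAR 2.4.0j, HTSeq, Cufflinks 2.2.1 and the build hg19 are named per the submitters' processing notes, and the sources used here do not say which step used which. All 3 value columns were mapped, with 0 columns left unmapped, to 1 library per group.

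The scale of all differences is log2(FPKM + 1), taken for the 10067 genes that reach 2 FPKM on average, in Python 3.11.15 with pandas 2.3.3, numpy 2.4.6 and scipy 1.17.1. Genes of like level are other genes with a mean of 2 to 4, 4 to 8, 8 to 16 or at least 16 FPKM. Depth was estimated from low values of genes with a single transcript of at least 800 nt in GENCODE 29 and is approximate. The calculations were tested on simulated data.

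Symbols matched RefSeq directly for 191 members and through an older symbol for 15. RefSeq proteins had been planned; translations of GENCODE 29 transcripts were used, since no protein table was used here. The first KRAB pattern missed known KRAB genes such as ZNF224 and was widened once, after subgroup values had been seen; of 318 genes it then matched, 312 have ZNF, ZFP, ZKSCAN or ZSCAN symbols. Gene order came from RefSeq on GRCh38.

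Named members were all those past 2-fold, the 10 most different in each direction in sh#7 against control and the 6 in the other comparisons, the 8 highest, the 3 on each side of the minimum, members of the role lists, and up to 4 of each other list, of which those of the ZBTB, ZSCAN, ZKSCAN and ZFP families and the others of KLF and SP are not printed. TRIM28 was named outside this rule. Matches to NRF1 and ZNF143 motifs were also searched and are not reported. Genes outside this rule are named only as parts of a run or where stated. Members and lists were chosen with earlier results of these data known.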

Additional observations from a re-analysis of the deposited data

How the results depend on the processing

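No paired analysis was possible because there is 1 library per group, and for the same reason no library could be left out. A median or count was taken as unchanged when it kept its sign and stayed within 1.5 times. Of 231 values of counts and set medians, 171 did so, 56 moved and 4 turned sign. Of 378 values of single named ZNF genes, 312 stayed within their counting interval, 66 moved past it, and 0 of those past 1.5-fold turned sign. Adding any symbol that starts with ZNF moved none of its 30 values. Median-of-ratios scaling shifts the median of all compared genes by -0.16 in sh#7 against control, -0.11 in sh#2 against control and -0.05 in sh#7 against sh#2, and upper-quartile scaling by -0.11, -0.08 and -0.03. Causes of the moves below were not tested. The share of all compared genes past a fold was not computed under other scalings, pseudocounts or minimum levels, so the counts below stand alone.

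Under median-of-ratios scaling, members past 2-fold in sh#7 against control numbered 0 higher and 1 lower, and past 1.5-fold 6 higher and 7 lower. In sh#2 against control 0 were 2-fold higher, and past 1.5-fold 2 were higher and 2 lower. In sh#7 against sh#2, 0 were 1.5-fold higher. The members' medians were 0.10, 0.089 and -0.0030 in the 3 comparisons, the last reversed. Under upper-quartile scaling, members past 1.5-fold were 7 higher and 7 lower in sh#7 against control, 2 and 2 in sh#2 against control, and 0 higher in sh#7 against sh#2, with medians of 0.14, 0.11 and 0.014. With a pseudocount of 0.1, sh#7 against control had 2 members 2-fold higher, and 28 higher and 7 lower past 1.5-fold. In sh#2 against control 11 were higher and 3 lower past 1.5-fold. In sh#7 against sh#2, 1 was 2-fold lower, and 5 were higher and 11 lower past 1.5-fold.

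With a minimum mean of 1 FPKM, the median relative to genes of like level was 0.018 in sh#7 against control and -0.061 in sh#7 against sh#2, the members' own median in the latter 0.020, and that of members with no KRAB box found 0.034. With a minimum of 5 FPKM, 10 members were higher and 1 lower past 1.5-fold in sh#7 against control, 2 were higher in sh#2 against control and 2 lower in sh#7 against sh#2. The members' median relative to like level was then 0.11 in sh#7 against control and 0.015 (reversed) in sh#7 against sh#2, and their own median in the latter 0.086. KRAB members then numbered 23, at 0.015 (reversed) in sh#7 against control and -0.068 in sh#7 against sh#2. The 6 on chromosome 19 were at 0.076 (reversed) and -0.14.

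With members outside chromosome 19 only, 0 were 2-fold higher and 0 were 1.5-fold lower in sh#7 against control. In sh#2 against control 0 were 2-fold higher and 1 was 1.5-fold higher, and in sh#7 against sh#2 1 was 1.5-fold lower. Medians relative to like level were then 0.077 in sh#7 against control and -0.012 in sh#7 against sh#2, the members' own median in the latter 0.074, and that of members with no KRAB box found 0.030.

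All alternatives run on the KRAB sets were added after seeing the data. They moved sh#7 against control in KRAB members on chromosome 19, to -0.13 with the stricter KRAB pattern and to -0.12 beside genes of like level and GC content. KRAB members elsewhere, at 0.0099 in that comparison, moved to 0.019 and 0.0025 under these, to 0.017 and 0.016 under the 2 scalings, to 0.030 and 0.015 with minimum means of 1 and 5 FPKM, and to 0.019 with the pseudocount of 0.1.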

Other observations

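Some ZNF genes under the minimum differed between libraries as much as the members did. They were chosen after their values were seen and carry no test. ZNF558, a KRAB gene on chromosome 19, was at 0.325 FPKM (control), 1.11 (sh#2) and 0.421 (sh#7), high in sh#2 alone. ZNF577, also a KRAB gene there, was at 1.53, 1.75 and 0.833 FPKM, low in sh#7 alone. ZNF22 was at 0.826, 0.644 and 0.224 FPKM and ZNF385C at 2.32, 1.36 and 1.20, both highest in the control.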
